A study of Mus musculus with 7 samples.

Results

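The genes described here build and load major histocompatibility complex (MHC) class I molecules: the class I heavy chains H2-D1 and H2-K1, the light chain B2m, the peptide transporter subunits Tap1 and Tap2, the loading factor Tapbp, the immunoproteasome subunits Psmb8, Psmb9 and Psmb10, and the transactivator Nlrc5. They were chosen by symbol, 10 of the 55417 gene symbols in the count table, and all 10 were among the 13329 genes with enough counts to be tested. The cells were RAW264.7, a mouse macrophage-like line transformed by Abelson leukaemia virus. They carried a short hairpin against the dipeptidase gene Dpep2, named shDpep2.968 (n = 2) or shDpep2.759 (n = 2), or the control hairpin shNT (n = 3), and the labels name no cytokine treatment or time. The labels do not say whether replicates were separate cultures or whether a hairpin line was a clone, so the p-values below reflect the spread among these libraries, which may be technical.

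Class I molecules show peptides from inside the cell to CD8 T cells. Proteasomes cut proteins in the cytosol, the Tap1 and Tap2 transporter moves the peptides into the endoplasmic reticulum, and tapasin holds an empty heavy chain with its light chain beside the transporter until a peptide binds. Interferons raise the whole set, replacing the constitutive catalytic proteasome subunits with Psmb8, Psmb9 and Psmb10, and Nlrc5 acts at a group of conserved elements, the SXY module, in class I promoters.

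Total counts were 16548648 to 18401060 per library. Values are given in CPM, counts scaled to a common library total with TMM factors. Dpep2 averaged 56.0 ± 4.1 CPM with shNT (SD, n = 3), 20.1 ± 3.2 with shDpep2.968 (n = 2) and 22.2 ± 3.8 with shDpep2.759 (n = 2). Of the 8 macrophage markers, Csf1r, Lyz2, Cd68, Itgam, Ptprc and Fcgr1 were at 258 CPM or more on average in each group and Adgre1 at 133 or more, but Mertk was at 0.173 or less, whereas the summed T and NK cell markers reached at most 0.231 CPM, with Cd3e, Cd3g and Ncr1 at 0 counts in all 7 libraries. RAW264.7 came from a BALB/c mouse, whose class I alleles differ from those of the C57BL/6 reference, and the third classical BALB/c heavy chain gene, H2-L, is not analysed here. How the authors' counting treated reads from those alleles or from H2-L is not given in the sources used here. Whether the H2-D1 or H2-K1 counts hold H2-L reads was not tested.

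The promoters show what these genes share in sequence. Windows of 250 bases before a RefSeq start site (assembly GRCm38.p6) were at hand for 8 of the 10 genes, all but Tap2 and Nlrc5. TGACG, the core of the X2 box, and ATTGG, the Y box, are elements of the SXY module, and in H2-K1, H2-D1 and B2m they stood 20 bases apart. That exact arrangement, searched on both strands, was in 0.0914% of 32817 mouse promoter windows of the same length. The 3 stretches are shown as a part of the SXY module, at which Nlrc5 acts, and the module's other elements were not searched. TGACG and ATTGG are in capitals, 5′ to 3′ on the gene's strand.
H2-K1, chr17:34000359-34000388, minus strand: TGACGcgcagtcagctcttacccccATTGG
H2-D1, chr17:35262993-35263022, plus strand: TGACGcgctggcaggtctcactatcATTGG
B2m, chr2:122147609-122147638, plus strand: TGACGacctccggatctgagtccggATTGG

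Between H2-K1 and H2-D1, 23 of the 30 bases were identical, against 13 between H2-K1 and B2m and 12 between H2-D1 and B2m. Farther from the start site both heavy chain promoters held an NF-kB element, searched as GGGG and TTCCC with 1 base between and found in 0.457% of windows, and an interferon-response element on the other strand, searched as GAA and GAAAC with 2 bases between and found in 1.45%. They are shown with those elements in capitals, and 29 of the 30 bases were the same.
H2-K1, chr17:34000429-34000458, minus strand: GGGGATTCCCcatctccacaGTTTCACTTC
H2-D1, chr17:35262923-35262952, plus strand: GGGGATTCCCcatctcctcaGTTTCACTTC
B2m instead held an element searched as GAAA and GAAA with 2 bases between, present in 974 of the 32817 windows. It opens the stretch at chr2:122147548-122147577, plus strand: GAAACTGAAAatgggaaagtccctttgtaa

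Tap1 and Psmb9 start back to back, with 225 bases between their RefSeq start sites. That shared window held TGACG (in 17.7% of all windows) and ATTGG (33.8%), but not at the 20-base distance. Of the motifs Tapbp held ATTGG alone, and Psmb8 and Psmb10 held none of the motifs searched in these windows. A match is a description of the letters and says nothing of binding in these cells. The build behind the deposited counts is not given as a mouse build, so these coordinates belong to RefSeq alone.

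The counts of some members rest partly on shared sequence. In GENCODE M21 transcripts, 27.7% of the 31-base words of H2-D1 and 23.3% of those of H2-K1 also occurred in other genes, on either strand, with H2-K1 and H2-D1 the largest partner of each other. For Tapbp the share was 23.9%, mostly with the antisense gene Gm19412. It was 15.5% for Tap2, 13.8% for Psmb9, 8.14% for Psmb8, 7.73% for Tap1, 0.175% for Nlrc5 and 0 for B2m and Psmb10. Psmb9 shared words with Tap1 alone, which it overlaps on the opposite strand. Without a stated strand setting, the division of reads in such pairs is uncertain.

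A lower value in such bulk libraries cannot tell fewer expressing cells from less RNA per cell. In control cells the pathway was expressed at very unequal levels. Divided by transcript length, B2m stood highest at 1017 ± 95 CPM per kilobase (SD, n = 3), rank 38 of 12757 tested genes with a known length. H2-D1 followed at 783 ± 93 and H2-K1 at 335 ± 48 CPM per kilobase. Tapbp was at 146 ± 10 and Psmb8 at 109 ± 14. Tap1 (44.6 ± 3.0), Tap2 (41.7 ± 6.2), Psmb10 (38.7 ± 4.8) and Psmb9 (31.8 ± 4.4) came next. Nlrc5 was lowest at 9.09 ± 0.56 CPM per kilobase, rank 6238.

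The order of the shNT levels was clear for the first 5 genes and for Nlrc5, since each of those ranges lay apart from the next. Among Tap1, Tap2, Psmb10 and Psmb9 each overlapped its neighbour across the 3 shNT libraries, although Tap1 and Tap2 both lay wholly above Psmb9. With either Dpep2 hairpin the first 5 places and the last were held by the same genes. A level per kilobase depends on the transcript chosen, here the longest coding one, so close positions depend on that choice.

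**Figure D1:**
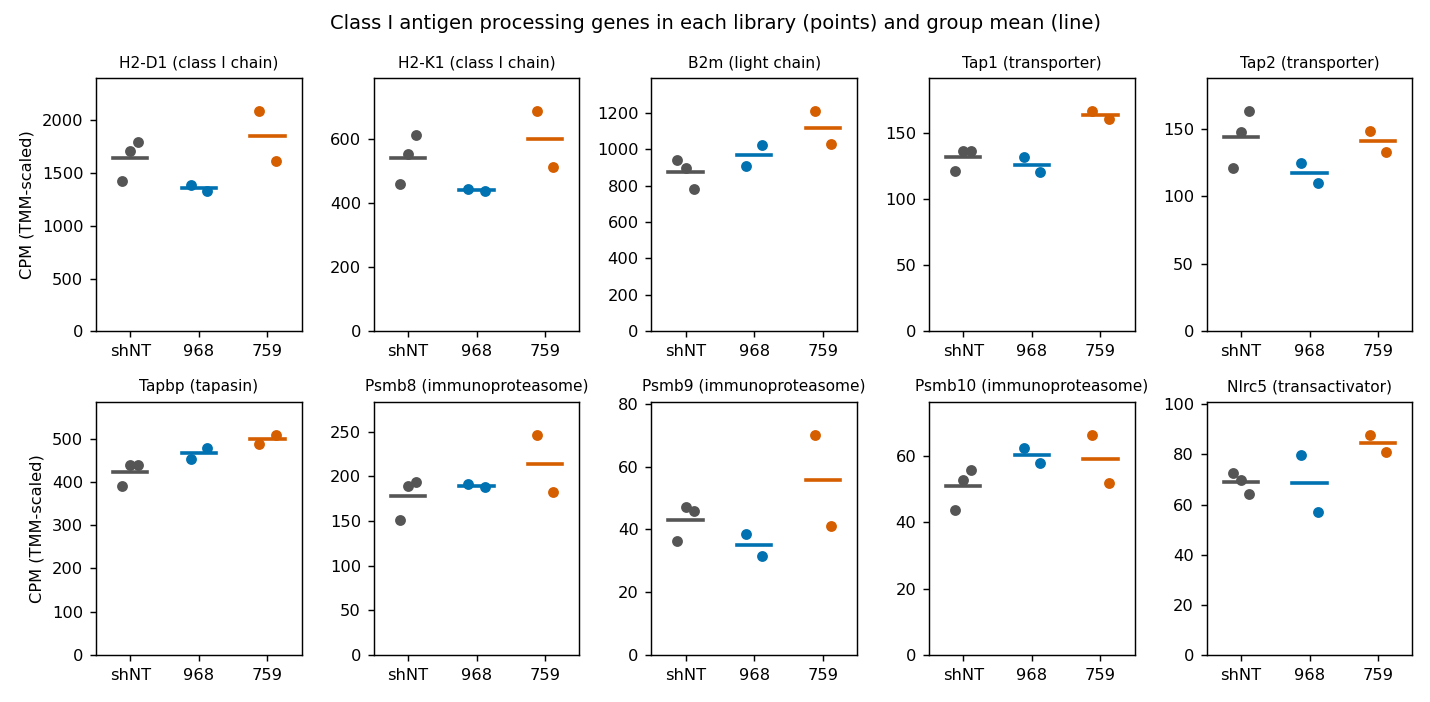
CPM (linear axis from 0) of each class I antigen processing gene in every library, as points, with the group mean as a line, for shNT (n = 3), shDpep2.968 (n = 2) and shDpep2.759 (n = 2). The groups overlap or lie close for most genes, and Tapbp is the only gene whose 4 hairpin libraries, at 454 to 508 CPM, all lie above the 3 shNT libraries, at 391 to 440 CPM.

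The first comparison set the class I genes of Dpep2 knockdown cells, as the mean of the hairpin lines, against shNT. None of the 10 genes passed the threshold (edgeR quasi-likelihood test, Benjamini-Hochberg adjusted p under 0.05 over all tested genes). None had an unadjusted p under 0.05 either, and DESeq2 and limma-voom also called 0. Over all tested genes 7.59% were called and 22.9% had an unadjusted p under 0.05. The members' log2 fold changes ran from -0.16 for Tap2 to 0.25 for B2m, with a median of 0.13, beside a median of 0.00 over all tested genes. The intervals set the limit of what this fit could show. Of the 95% intervals of the 10 genes, each taken alone, none reached below 0.749-fold or above 1.41-fold. Larger shifts of the averaged level lay outside them in this fit. With the correction for GC content and transcript length given below, the interval of Tapbp reached log2 0.53.

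The heavy chains present the peptide. H2-D1 stood at 1384 and 1328 CPM in the shDpep2.968 libraries, at 2086 and 1613 in the shDpep2.759 libraries and at 1427, 1714 and 1799 in the shNT libraries. The shDpep2.968 libraries were the lowest of the 7, and of the shDpep2.759 libraries replicate 1 lay above the shNT range and replicate 2 inside it. Of the members 2, H2-D1 and H2-K1, had both shDpep2.968 libraries below all shNT libraries, as did 22.7% of tested genes. The averaged fold change of H2-D1 was 0.962 (log2 -0.06, SE 0.13, 95% interval -0.33 to 0.21, edgeR adjusted p = 0.834).

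H2-K1 was measured at 445 and 437 CPM in the shDpep2.968 libraries, at 688 and 513 in the shDpep2.759 libraries and at 460, 554 and 614 in the shNT libraries. Its 7 libraries stood in the same order as those of H2-D1, with an averaged fold change of 0.948 (log2 -0.08, SE 0.13, interval -0.36 to 0.21, edgeR adjusted p = 0.781). The ratio of H2-D1 to H2-K1 counts stayed between 2.93 and 3.14 in all 7 libraries. Its SD on the log2 scale was 0.03 over the 7 libraries, against 0.18 for Tap1 over Tap2, 0.24 for Psmb9 over Psmb8 and 0.27 for H2-D1 over B2m. The heavy chains share sequence, as given above, and the part of that sharing in the steady ratio was not tested.

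B2m, the invariant light chain without which heavy chains do not reach the surface, did not follow the heavy chains. It had 908 and 1026 CPM in the shDpep2.968 libraries, 1208 and 1027 in the shDpep2.759 libraries and 942, 899 and 784 in the shNT libraries. All but 1 of the hairpin libraries lay above every shNT library. At 1.19-fold (log2 0.25, SE 0.12, interval -0.002 to 0.50) it had the smallest unadjusted p of the 10, 0.0514, and an edgeR adjusted p of 0.222. The H2-D1 level was highest relative to B2m in shNT replicate 3 (2.30-fold by CPM) and lowest in shDpep2.968 replicate 2 (1.29-fold).

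Tap1 and Tap2 form the transporter in equal parts. Tap1 stood at 132 and 120 CPM in the shDpep2.968 libraries, 166 and 160 in the shDpep2.759 libraries and 122, 137 and 137 in the shNT libraries (averaged log2 0.12, SE 0.10, interval -0.09 to 0.33, edgeR adjusted p = 0.491). The 2 shDpep2.759 libraries were the highest of the 7. Of the members 4 had both shDpep2.759 libraries above all shNT libraries, as did 18.2% of tested genes. Tap2 was at 124 and 110 CPM, 148 and 133 CPM, and 121, 147 and 163 CPM in the same order of groups (log2 -0.16, SE 0.12, interval -0.42 to 0.09, edgeR adjusted p = 0.439).

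The Tap1 to Tap2 ratio by CPM was 1.06 and 1.10 in the shDpep2.968 libraries, 1.12 and 1.20 in the shDpep2.759 libraries and 1.01, 0.928 and 0.839 in the shNT libraries. The 4 hairpin values lay above the 3 shNT values. This ratio was singled out after its values were seen and is given with no test.

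Tapbp encodes tapasin, which bridges the transporter and the heavy chain. It had 454 and 478 CPM in the shDpep2.968 libraries, 488 and 508 in the shDpep2.759 libraries and 391, 440 and 438 in the shNT libraries. Tapbp was the 1 member whose hairpin libraries all lay above all shNT libraries, an arrangement seen in 9.03% of tested genes. No member had its hairpin libraries all below, as 9.51% of tested genes did. The size was 1.14-fold (log2 0.19, SE 0.10, interval -0.03 to 0.41, edgeR adjusted p = 0.298).

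Psmb8, Psmb9 and Psmb10 are the interferon-inducible catalytic subunits, each taking the place of a constitutive subunit, Psmb5, Psmb6 and Psmb7. Psmb8 was at 191 and 188 CPM in the shDpep2.968 libraries, 246 and 182 in the shDpep2.759 libraries and 152, 189 and 193 in the shNT libraries. Its groups overlapped, at 1.13-fold (log2 0.18, SE 0.13, interval -0.10 to 0.45, edgeR adjusted p = 0.436).

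Psmb9 was the most variable member, at 38.4 and 31.5 CPM in the shDpep2.968 libraries, 70.0 and 41.2 in the shDpep2.759 libraries and 36.2, 47.0 and 45.8 in the shNT libraries. The value of 70.0 CPM in shDpep2.759 replicate 1 stood above the other 6 libraries, which ended at 47.0 CPM. The averaged fold change was 1.03 (log2 0.04, SE 0.18, interval -0.35 to 0.42, edgeR adjusted p = 0.931). Psmb10 stood at 62.5 and 58.0 CPM, 66.3 and 52.0 CPM, and 43.7, 52.8 and 55.9 CPM, which is 1.18-fold (log2 0.23, SE 0.12, interval -0.03 to 0.50, edgeR adjusted p = 0.280), with shDpep2.759 replicate 2 inside the shNT range.

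The balance between each inducible subunit and its constitutive counterpart within a library did not separate the 4 hairpin libraries from the 3 shNT libraries. Psmb8 over Psmb5 was 2.27 and 2.48 by CPM in the shDpep2.968 libraries, 2.69 and 2.71 in the shDpep2.759 libraries and 2.28, 2.34 and 2.32 in the shNT libraries. Psmb9 over Psmb6 was 0.251 and 0.215 in the shDpep2.968 libraries, 0.383 and 0.325 in the shDpep2.759 libraries and 0.258, 0.286 and 0.290 in the shNT libraries. For both ratios the shDpep2.759 libraries lay above all others, and for Psmb9 over Psmb6 the shDpep2.968 libraries lay below. Psmb10 over Psmb7 ran from 0.234 to 0.328 with all groups overlapping. On the log2 scale the hairpin mean exceeded the shNT mean by 0.13, 0.04 and 0.13. The exact two-sided permutation tests of 4 against 3 libraries gave p = 0.229, 0.971 and 0.343, or 0.514, 0.971 and 0.514 adjusted over the 3 ratios. With 35 splits this exact test cannot give less than 0.0571. The direction for Psmb9 over Psmb6 turned without shDpep2.759 replicate 1, shDpep2.759 replicate 2 or shNT replicate 1 (log2 -0.10, -0.02 and -0.01).

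**Figure D2:**
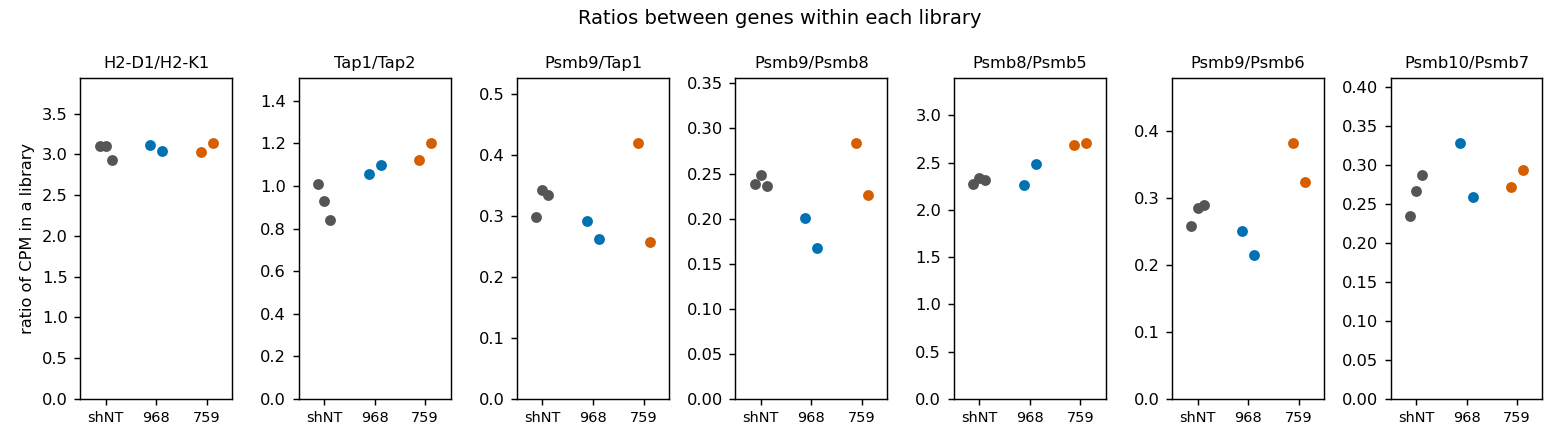
Ratio of CPM between genes within each library (linear axes from 0), 1 point per library, for shNT (n = 3), shDpep2.968 (n = 2) and shDpep2.759 (n = 2). H2-D1/H2-K1 lies between 2.93 and 3.14 in every library, Tap1/Tap2 is 1.06 to 1.20 in hairpin libraries and 0.839 to 1.01 with shNT, and the inducible over constitutive subunit ratios overlap between hairpin and shNT libraries.

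Nlrc5, the class I transactivator, had 79.7 and 57.1 CPM in the shDpep2.968 libraries, 87.7 and 81.1 in the shDpep2.759 libraries and 72.5, 69.9 and 64.2 in the shNT libraries. The shDpep2.968 libraries lay on either side of the whole shNT range. The averaged change was 1.10-fold (log2 0.14, SE 0.12, interval -0.12 to 0.40, edgeR adjusted p = 0.521).

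A correction for GC content and transcript length, added after results had been seen, changed these calls. Of the members, 9 had a GC content of 52.6% to 57.3%, above the tested-gene median of 49.8%, and B2m had 41.2%. With per-library offsets for both properties 4 of 10 members were higher and none lower (edgeR adjusted p from 0.0113 to 0.0366), beside 8.54% of tested genes called higher and 17.2% called in either direction in that fit. They were Psmb10 (log2 0.33, SE 0.08, against 0.23 without the correction), Tapbp (0.33, SE 0.09, against 0.19), Psmb8 (0.27, SE 0.08, against 0.18) and Tap1 (0.26, SE 0.07, against 0.12). All 4 were shifts of 1.20-fold to 1.26-fold.

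The same correction lowered B2m from log2 0.25 to 0.11 and turned H2-D1 from -0.06 to 0.06 and H2-K1 from -0.08 to 0.03, none of them called. The 2 fits therefore differ on whether any member changed, and which describes the RNA was not tested.

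**Figure D3:**
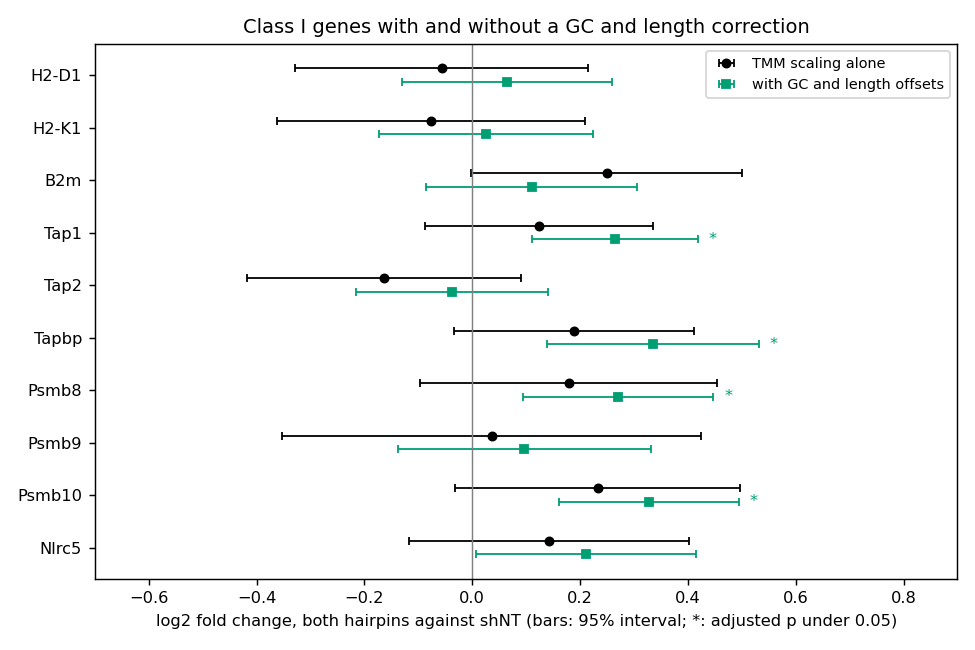
Averaged log2 fold change of both hairpins against shNT with its 95% interval for each gene, with TMM scaling alone (circles) and with offsets for GC content and length (squares), where a star marks an adjusted p under 0.05. No circle is marked, and the squares of Tap1, Tapbp, Psmb8 and Psmb10 are, at log2 0.26, 0.33, 0.27 and 0.33.

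The second comparison took each hairpin against shNT. Neither called a member (0 of 10 each by edgeR, DESeq2 and limma-voom), where 5.25% of tested genes were called with shDpep2.968 and 4.73% with shDpep2.759. Unadjusted p-values under 0.05 numbered 0 with shDpep2.968 and 2 with shDpep2.759, where 23.1% and 19.3% of tested genes had one. The 2 were those of B2m (1.28-fold, edgeR adjusted p = 0.173) and Tap1 (1.24-fold, edgeR adjusted p = 0.155). With shDpep2.968 the values were 1.11-fold for B2m and 0.956-fold for Tap1. The median member stood at log2 -0.04 with shDpep2.968 and 0.25 with shDpep2.759, beside 0.00 over all tested genes in each. Both comparisons share the shNT libraries.

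With shDpep2.968 the lowest members were Psmb9 (0.813-fold), H2-K1 (0.813-fold), Tap2 (0.814-fold) and H2-D1 (0.823-fold), with edgeR adjusted p from 0.229 to 0.428. With shDpep2.759 the highest was Psmb9 (1.29-fold, edgeR adjusted p = 0.365), a value that rests on 1 library. Without shDpep2.759 replicate 1 it was log2 -0.06, and without shDpep2.759 replicate 2 it was 0.70. The GC and length correction called 1 member with each hairpin, Psmb10 with shDpep2.968 (log2 0.43, edgeR adjusted p = 0.00836, beside 6.87% of tested genes called higher) and Tap1 with shDpep2.759 (log2 0.41, edgeR adjusted p = 0.00622, beside 6.79%). Between the hairpins it called 0 members, beside 4.31% of tested genes, and 5 members had an unadjusted p under 0.05, beside 20.1% of tested genes.

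**Figure D4:**
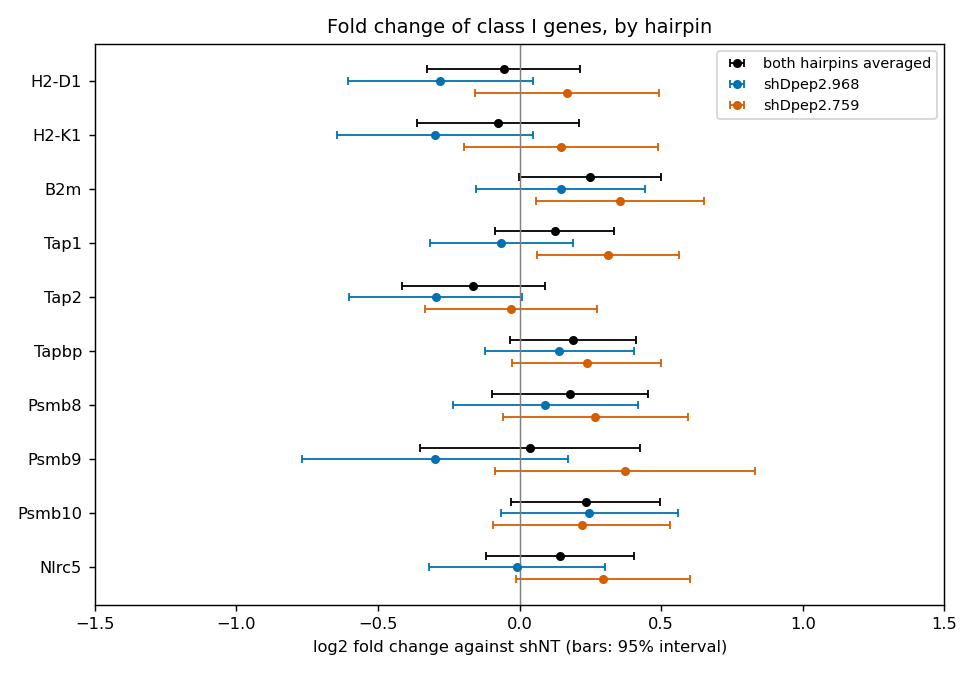
Log2 fold change against shNT with its 95% interval for each gene, for both hairpins averaged (n = 4 against 3), shDpep2.968 (n = 2 against 3) and shDpep2.759 (n = 2 against 3). All intervals but those of B2m and Tap1 with shDpep2.759 cross 0. For 9 of 10 genes the point lies lower with shDpep2.968 than with shDpep2.759, and edgeR called no member between the hairpins. The median over all tested genes between the hairpins was log2 -0.01.

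The third comparison tested the hairpins against each other. None of the 10 passed (edgeR, DESeq2 and limma-voom each called 0, where edgeR called 0.840% of tested genes), but 4 had an unadjusted p under 0.05, as did 15.0% of tested genes. H2-D1 was 0.733-fold with shDpep2.968 relative to shDpep2.759 (log2 -0.45, SE 0.16, interval -0.80 to -0.09, edgeR adjusted p = 0.235). H2-K1 was 0.735-fold (log2 -0.44, SE 0.17, adjusted p = 0.260 by edgeR), Tap1 0.771-fold (log2 -0.38, SE 0.13, adjusted p = 0.200 by edgeR) and Psmb9 0.628-fold (log2 -0.67, SE 0.23, adjusted p = 0.222 by edgeR). With no filter on low counts Psmb9 was called (edgeR adjusted p = 0.00300). Over the alternatives other than a left-out library, 54 to 669 of all genes were called, against 112 in the main fit. Psmb10 alone was not lower with shDpep2.968, at 1.02-fold. The members' median was log2 -0.29, beside -0.01 over all tested genes.

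In 8 of the 10 genes both shDpep2.968 libraries lay below both shDpep2.759 libraries in CPM, an arrangement held by 22.5% of tested genes. The 2 genes without it were Psmb8 and Psmb10. The shDpep2.759 replicate 1 library was the highest of all 7 for 8 of the 10 genes. The share of all tested genes highest in that library was not counted, so the 8 cannot be set against it. Over all tested genes that library's counts differed from those of its own replicate more than any other replicate pair's did (chi-square per degree of freedom 45.1, against 15.5 to 26.4). Without shDpep2.759 replicate 2, which leaves replicate 1 to stand for that hairpin, H2-D1, H2-K1 and Psmb9 stood at log2 -0.61, -0.63 and -0.99. Without shDpep2.759 replicate 1, H2-D1 and H2-K1 stood at log2 -0.25 and -0.22.

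Marker sums also differed between the hairpin lines. The 8 macrophage markers summed to 12874 to 12978 CPM with shDpep2.968, 14782 to 18069 with shDpep2.759 and 12074 to 13525 with shNT, mostly Lyz2 (8817 to 14050 CPM). Adgre1 was called lower with shDpep2.968 than with shDpep2.759, at means of 150 and 259 CPM (edgeR adjusted p = 0.0164), and averaged 133 with shNT. Itgam, by contrast, averaged 871 CPM with shDpep2.968 against 1217 with shNT. Csf1r, at 1325 CPM with shDpep2.968 against 1191 with shDpep2.759, was not called between the hairpins (edgeR adjusted p = 0.635). The 7 dendritic cell markers, none at 0 in all libraries, summed to 40.5 to 47.3, 71.9 to 73.2 and 18.0 to 21.1 CPM in the same order. Most of that sum was Cd83 (means of 34.5, 64.5 and 15.3 CPM), whereas Itgax was highest with shDpep2.968 (7.96, 3.43 and 2.10 CPM) and Flt3 and Clec9a were below 0.1 CPM. The 5 neutrophil markers, of which Ly6g had 0 counts throughout, summed to 34.1 to 50.2, 99.9 to 237 and 17.3 to 33.7 CPM, nearly all of it S100a8. Their part in the class I values was not tested.

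The mean of the members' centred log2 CPM was 0.32 in shDpep2.759 replicate 1, 0.04 in its replicate 2, -0.06 and -0.16 with shDpep2.968, and -0.19, 0.01 and 0.03 with shNT. By that profile over 7 libraries, Rab35, Cenpb, Tepsin, Trappc3 and Erp29 were most like the members among 9500 other genes (Pearson r from 0.980 to 0.993, a description over libraries that share the 3 groups). None of these 5 genes was called in the averaged comparison, an outcome that their choice by the members' profile largely fixed.

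Of all tested genes 3.44% were called higher and 4.15% lower in the averaged comparison. The related gene lists were chosen with earlier results of these data known, so their counts beside these shares test nothing. The rest of the degradation machinery gave no calls in the averaged comparison. Of the 3 constitutive catalytic subunits, the 7 proteasome activator and assembly genes, the 11 other core subunits tested and 6 cytosolic peptidases, none passed in edgeR, DESeq2 or limma-voom and none had an unadjusted p under 0.05. Their median log2 fold changes were 0.05, 0.05, 0.01 and 0.06. Psme1, an interferon-inducible subunit of the activator that caps the proteasome, had a log2 value of -0.21 (edgeR adjusted p = 0.290). The smallest p of the core subunits was that of Psmb2 at log2 -0.17 (edgeR adjusted p = 0.477), and of the constitutive catalytic subunits that of Psmb7 at 0.11 (edgeR adjusted p = 0.622). Among the peptidases the lowest adjusted p was that of Blmh, at log2 -0.12 (edgeR adjusted p = 0.528). With the GC and length offsets 1 peptidase, Thop1, was called higher (log2 0.31, edgeR adjusted p = 0.0133), beside 8.54% of tested genes. The gene was named after its values were seen.

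Of 7 other peptide loading and trimming genes 1 rose, with a list median of log2 0.15. Calr, the chaperone calreticulin that holds new heavy chains, rose 1.30-fold, from 1446 ± 119 CPM with shNT (SD, n = 3) to 1865 ± 20 with shDpep2.968 (n = 2) and 1889 ± 34 with shDpep2.759 (n = 2). Its edgeR adjusted p of 0.0493 lay at the threshold, and the call was lost with 5 of the 7 libraries left out in turn, all but the shDpep2.759 ones.

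Of 12 tested other class I heavy chains 1 rose, and the list median was log2 0.04. Of the 12, 5 had an unadjusted p under 0.05, as did 22.9% of all tested genes. H2-T22, a non-classical chain known as a ligand of gamma-delta T cell receptors, rose 1.34-fold (log2 0.43, SE 0.11, edgeR adjusted p = 0.0391). Its level was 77.3 ± 4.0 CPM with shNT (n = 3), 91.2 ± 7.0 with shDpep2.968 (n = 2, 1.18-fold, edgeR adjusted p = 0.305) and 118 ± 23 with shDpep2.759 (n = 2, 1.53-fold, edgeR adjusted p = 0.0184). For this gene the test between hairpins made no call (edgeR adjusted p = 0.260). It shares 55.8% of its 31-base words with H2-T10, so its count is uncertain. Its call did not survive leaving out replicate 2 of shDpep2.968, replicate 1 of shDpep2.759 or any shNT library. The GC and length offsets also called H2-T24 higher (log2 0.34, edgeR adjusted p = 0.0111) and H2-Bl lower (log2 -0.38, edgeR adjusted p = 0.0457). Both were named after their values were seen, in a fit that called 17.2% of tested genes.

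Of 4 class I-like molecules 2 fell, with a list median of log2 -0.20. Mr1, which presents vitamin B metabolites to MAIT cells, fell by 0.67 on the log2 scale (SE 0.13, edgeR adjusted p = 0.00659), from 16.0 ± 1.0 CPM with shNT (n = 3) to 8.57 ± 0.75 with shDpep2.968 (n = 2) and 11.8 ± 0.7 with shDpep2.759 (n = 2). Fcgrt, the neonatal Fc receptor that salvages IgG and albumin, fell by 0.65 (SE 0.15, edgeR adjusted p = 0.0230) from 11.5 ± 1.9 CPM with shNT, a call lost without shNT replicate 2 or 3, either shDpep2.968 library or shDpep2.759 replicate 2.

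Among 18 regulators of class I transcription 2 rose and none fell, with a list median of log2 0.05. Stat2, a transcription factor of interferon signalling, rose 1.33-fold (log2 0.41, SE 0.09, edgeR adjusted p = 0.0207). Each of its hairpin libraries, at 117 and 128 CPM for shDpep2.968 and 165 and 156 CPM for shDpep2.759, lay above the shNT libraries, at 110, 103 and 105 CPM. With all hairpin libraries as 1 group Stat2 missed the threshold (edgeR adjusted p = 0.0889). Its call needed replicate 2 of shDpep2.968 and replicates 2 and 3 of shNT. Irf9 and Rela were called higher with the GC and length offsets (log2 0.31 and 0.26, edgeR adjusted p = 0.0136 and 0.0434). Both were named after their values were seen. Of 7 interferon receptor and kinase genes none passed in edgeR, DESeq2 or limma-voom, with a median of log2 -0.23. Of the 7, 3 had an unadjusted p under 0.05, as did 22.9% of all tested genes. Ifnar2, a chain of the type I interferon receptor with the smallest p of the list, was at log2 -0.23 (edgeR adjusted p = 0.179). It fell with shDpep2.968 (42.1 ± 1.6 CPM, n = 2, against 58.5 ± 2.3 with shNT, n = 3, 0.719-fold, edgeR adjusted p = 0.0366) and stood at 1.01-fold with shDpep2.759 (59.2 ± 3.0 CPM, n = 2, edgeR adjusted p = 0.960). The difference between the hairpins was not called (edgeR adjusted p = 0.0998). With the GC and length offsets 3 genes of the list, Ifnar2, Ifngr1 and Jak2, were called lower on average. Their log2 values were -0.23, -0.29 and -0.35 (edgeR adjusted p from 0.0157 to 0.0465). That fit called 17.2% of tested genes in either direction and 8.54% higher. Ifngr1 and Jak2 were named after their values were seen.

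The class II pathway, which shows peptides from endosomes, had 6 of 11 genes at a level that could be tested, with Ciita, the class II transactivator, at 0 to 0.173 CPM. Of those 6, 3 fell and none rose, with a list median of log2 -0.80. Cd74, the invariant chain, fell by 0.81 on the log2 scale (SE 0.12, edgeR adjusted p = 0.00179), from 725 ± 58 CPM with shNT (n = 3) to 437 ± 18 with shDpep2.968 (n = 2) and 389 ± 81 with shDpep2.759 (n = 2). H2-Ob and H2-Oa, subunits of the peptide-loading modulator, fell by 1.58 and 1.33 from 2.51 and 1.74 CPM (edgeR adjusted p = 0.0114 and 0.0497). The H2-Ob call needed replicate 2 of shDpep2.968 and replicates 2 and 3 of shNT, and the H2-Oa call also replicate 2 of shDpep2.759 and replicate 1 of shNT.

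Of 5 tested genes listed as myeloid receptors for class I, 1 rose, with a list median of log2 -0.13. It was Siglece, which binds sialic acids rather than class I chains, at 2.43-fold (log2 1.28, SE 0.14, edgeR adjusted p = 0.000274). With all hairpin libraries fitted as 1 group it was no longer called (edgeR adjusted p = 0.0679).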

How the data were processed

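RNA was extracted with a TIANGEN kit and sequenced as 150-bp pairs after TruSeq Stranded Total RNA preparation, per the labels' protocols. The authors deposited 1 table of whole-number counts per gene symbol for 7 libraries. The submitters' processing notes name Trim Galore, Salmon and the human build hg38, although the symbols are mouse. For the annotation, the strand setting and any rounding of Salmon's output the sources used here give nothing. Members and lists were chosen with earlier results of these data known. Genes passed edgeR's filterByExpr with the 3 groups. One model of all 7 libraries (R 4.3.3, edgeR 4.0.16, TMM, quasi-likelihood test) gave 3 contrasts and the difference between hairpins, with p-values adjusted by Benjamini-Hochberg over all tested genes and 95% intervals from the fit. Named genes were all members, the genes of each list called in the averaged or between-hairpin contrast (at most 4 a list), else the gene of smallest p, and the 5 genes most like the members' mean profile. Alternatives were DESeq2 1.42.0, limma-voom (limma 3.58.1), other scalings and filters, a replicate block, each library left out and, chosen after seeing the data, GC content and length offsets covering 95.7% of tested genes. Transcript lengths came from GENCODE M21 and promoters from RefSeq. Scripts were tested on simulated data. The listed symbols Nrdc, H2-T9 and Pira6 are not analysed here. Of the regulators of class I transcription, 1 gene that was called is counted but not reported here.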

Additional observations from a re-analysis of the deposited data

Results flagged for a closer look

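Siglece, an inhibitory receptor for sialic acids, differed between the hairpins. The shNT libraries had 5.74, 7.12 and 7.99 CPM, the shDpep2.968 libraries 10.8 and 11.6 CPM and the shDpep2.759 libraries 26.4 and 24.5 CPM. Its log2 fold change with shDpep2.968 minus that with shDpep2.759 was -1.19 (edgeR adjusted p = 0.0141), and the difference was no longer called without either shDpep2.968 library. It is not among the 10 class I antigen processing genes, of which 0 were called between the hairpins (edgeR, 4 with an unadjusted p under 0.05; DESeq2 and limma-voom 0).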

How the results depend on the processing

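Of the members' fold changes under the alternatives, 680 kept their direction and side of the threshold, 11 gained a call and 29 turned direction. No member had a call to lose. The number of members called stayed at 0 in 66 of 72 alternatives. With GC content and length offsets it was 4 for the averaged comparison and 1 for each hairpin. Between the hairpins it was 1 with no low-count filter (Psmb9). The rest were fits without shDpep2.759 replicate 2, which leave 1 library for that hairpin, so their counts are not given. The cause was not tested. Where a library left out leaves 1 in its group, that sample is assumed to vary like the others.

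Turned directions had these values. For Nlrc5 with shDpep2.968 the log2 value was 0.00127 with RLE scaling and 0.00127 with DESeq2. The GC and length offsets gave 0.064 for H2-D1 and 0.025 for H2-K1 averaged, 0.12 for Tap1 and 0.069 for Nlrc5 with shDpep2.968, 0.048 for Tap2 with shDpep2.759 and 0.0019 for Tapbp between hairpins. Leaving out each library gave -0.16 to 0.028 for H2-D1, -0.19 to 0.019 for H2-K1 and -0.18 to 0.20 for Psmb9 averaged. With shDpep2.759 it gave -0.032 to 0.34 for H2-D1, -0.083 to 0.34 for H2-K1, -0.064 to 0.70 for Psmb9 and -0.14 to 0.056 for Tap2. With shDpep2.968 it gave -0.26 to 0.21 for Nlrc5 and -0.013 to 0.16 for Psmb8. Between hairpins it gave -0.13 to 0.21 for Psmb10 and -0.37 to 0.059 for Psmb8, and for the Psmb9 to Psmb6 ratio -0.10 to 0.18.

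Deviations of same-numbered replicates from their group means were weakly correlated (from -0.19 to 0.06). Within each hairpin group these deviations mirror each other, so each replicate number gave the same correlation between the hairpins, 0.06. So few correlations cannot decide whether same-numbered libraries were handled together, and the labels do not say. With a replicate block H2-D1 and H2-K1 stood at 0.0072 and 0.017 averaged and Tap2 at 0.068 with shDpep2.759, and 0 members were called. Only shNT replicate 3 has its number, so the block fits that library exactly and takes it out of the comparison. Leaving that library out with no block gave 0.0073 for H2-D1, 0.017 for H2-K1 and 0.056 for Tap2. The block also ended the averaged calls of Calr, H2-T22, Mr1, Fcgrt, Stat2 and H2-Oa. All of these but Mr1 also ended without shNT replicate 3. Over all genes the averaged count of 1012 ran from 321 to 2296. Settings other than a left-out library or the block ended the calls of Calr (3 scalings, filters or fits and the 1-group fit), H2-T22 (limma-voom, the non-robust and the 1-group fit) and H2-Oa (DESeq2, the non-robust and the 1-group fit), beside Siglece and Stat2 in the 1-group fit.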
